A study of Mus musculus with 3 samples.

Results

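The array holds 1104 probes whose names begin with humanlincRNA, each present as 1 spot, among 60915 probes for transcripts. They were found by name alone, and no measured value enters that rule. The rule itself was set with earlier results of these data known. The names run over 557 numbers between 2 and 2514. For 547 of these numbers there is a probe named with + and a probe named with -, and for 10 numbers there is only 1 of them. Of the 1104 probes, 2 carried the scanner software's outlier flag on an array, so values are given for 1102 of 60846 probes without such a flag, 548 named with + and 554 named with -. The files give neither the sequence nor the genome position of these probes, and they do not say what the sign or the ending P1 stands for. Whether a probe named for a human transcript binds an RNA of the mouse, and which one, was therefore not read from the name, and the probes are called humanlincRNA probes throughout.

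Long intergenic non-coding RNAs (lincRNAs) are transcripts made from stretches of genome between protein-coding genes. They are spliced and polyadenylated in many cases, and no protein is made from them. As a class they are known for low levels, for being made in few tissues each, and for sequences that differ more between species than those of coding genes. Single lincRNAs are known to act on chromatin, on transcription of neighbouring genes or as scaffolds for proteins, but most have no known role. In dorsal root ganglia, which hold the cell bodies of sensory neurons, levels of many such RNAs are known to change after nerve injury.

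The cells were primary neurons of dorsal root ganglia, taken from C57BL/6 mice at an age of 5 to 9 days and kept in culture for 5 days. Melatonin at 1 mM, 8-M-PDOT at 100 µM or the vehicle, 1% ethanol in saline, was then present for 24 h. Melatonin is the hormone of the pineal gland and acts on membrane receptors, and 8-M-PDOT is labelled as an agonist of one of them, melatonin receptor 1B. The solvent of the treated cultures is not given in the labels, and neither is the number of mice behind each culture. The protocol lists no step that removes other ganglion cells, and the files name no marker gene by which the labelled cell type could be checked.

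Each condition was measured on 1 one-colour array, so no difference has a replicate check and no p-value is given. Precision is limited by that number of arrays. All 3 arrays lay on 1 slide and in 1 scan, each at its own place on it, so place on the slide and condition cannot be told apart. The 75th percentile of the signal was 454 intensity units on the melatonin array and 328 on the 8-M-PDOT array, against 477 on the vehicle array. Levels below are log2 of the signal minus that percentile, so 0 is the brightness that 75% of probes stay under, and ratios are differences of such levels. How far the lower 75th percentile of the 8-M-PDOT array bears on its ratios was not tested beyond the other scalings given at the end. In cultured cells measured in bulk, fewer cells that make an RNA and less of it per cell cannot be told apart. A probe's brightness also depends on its sequence, so levels of different probes are not amounts of RNA.

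Fewer than 1 of 2 humanlincRNA probes gave a signal that the scanner software called well above background. The number was 463 of 1102 on the melatonin array (42.0%, exact Clopper-Pearson 95% interval 39.1 to 45.0%). It was 459 on the 8-M-PDOT array (41.7%, 38.7 to 44.6%), against 455 on the vehicle array (41.3%, 38.4 to 44.3%). These intervals treat the probes as draws from a larger set and cover no difference between cultures. The shares of the 3 arrays lay within each other's intervals. Probes named with + were above background in 223 of 548 cases on the melatonin array and 220 on the 8-M-PDOT array, against 222 on the vehicle array. For probes named with - the numbers were 240 of 554 and 239, against 233, so both signs were detected about as often.

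Other probe names on the same arrays show where these shares stand. The 648 mouselincRNA probes were above background in 42.6% of cases on the melatonin array and 45.7% on the 8-M-PDOT array, against 42.7% on the vehicle array. The 83 MM9LINCRNAEXON probes, named for lincRNA exons of mouse build mm9, stood at 59.0% and 62.7%, against 60.2%. All other study probes, 59013 in number, stood at 75.1% and 74.9%, against 74.2%. Probes named for human lincRNAs thus lit up within a few percentage points of the share for probes named for mouse lincRNAs, and far less often than other study probes. The array's negative control spots were above background in 29 of 265 spots (10.9%) on the melatonin array and in 27 (10.2%) on the 8-M-PDOT array, against 17 (6.42%) on the vehicle array. Those spots belong to 15 control probes. Of these, MM9NEGATIVE016 and MM9NEGATIVE017 were above background in most of their spots on both treated arrays, and 1 control probe was on the vehicle array.

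**Figure D1:**
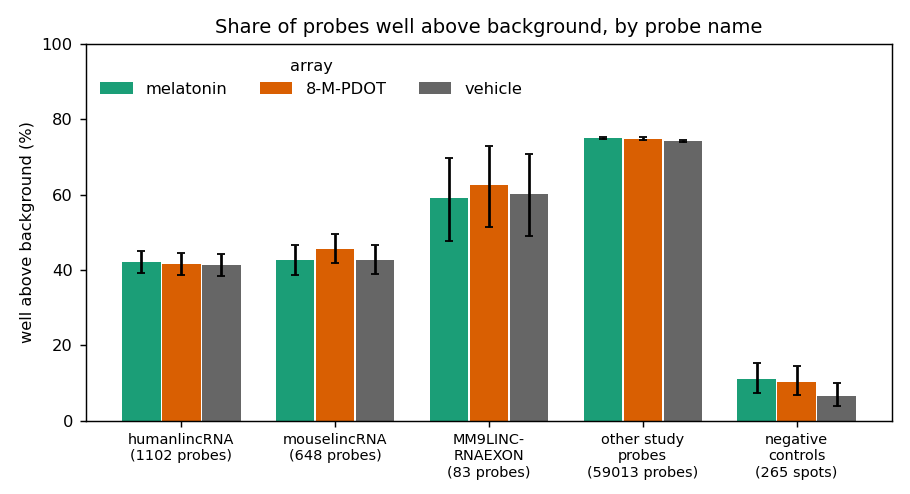
Share of probes well above background (vertical axis, percent) on the melatonin, 8-M-PDOT and vehicle arrays for probes grouped by name, with exact 95% intervals as error bars that cover the choice of probes only. The humanlincRNA bars stand between 41.3% and 42.0%, near the mouselincRNA bars, below the bars of other study probes and above those of the negative control spots.

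The call is loose at its lower edge. The dimmest humanlincRNA probe called above background had 16.8 intensity units on the melatonin array and 14.8 on the 8-M-PDOT array, against 19.3 on the vehicle array. The brightest probe not called had 18.4 and 17.0 units, against 19.2 on the vehicle array. Some negative control spots were brighter than either, up to 30.4 and 29.6 units, against 27.8 on the vehicle array. Counting only probes that were called and were also brighter than every negative control spot left 345 probes on the melatonin array (31.3%) and 330 on the 8-M-PDOT array (29.9%), against 378 on the vehicle array (34.3%). Between 29.9% and 34.3% of the humanlincRNA probes, by array, thus gave a signal that no negative control spot reached. By this count the vehicle array had the most probes, whereas it had the fewest by the call alone (455). The same share over other study probes is not given here.

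Across the 3 arrays, 549 humanlincRNA probes (49.8%) were above background at least once and 553 never were. Of the 549, 372 were above background on all 3 arrays, which is 67.8%, and the same share over all study probes was 84.7%. A further 53 were above background on the melatonin and vehicle arrays only (9.65%, all study probes 3.97%), 20 on both treated arrays but not on vehicle (3.64%, all study probes 2.19%), and 11 on the 8-M-PDOT and vehicle arrays only (2.00%, all study probes 1.08%). Probes seen on a single array numbered 18 on the melatonin array (3.28%, all study probes 1.76%) and 56 on the 8-M-PDOT array (10.2%, all study probes 4.47%), against 19 on the vehicle array (3.46%, all study probes 1.81%). Each incomplete pattern took a larger share of the humanlincRNA probes than of all study probes, and the humanlincRNA probes were also dimmer; the part of brightness in these shares was not tested. Probes seen on the melatonin array alone had 16.8 to 70.4 units with a median of 20.1. Those seen on the 8-M-PDOT array alone had 16.5 to 1375 units with a median of 38.9, whereas those seen on the vehicle array alone had 19.3 to 37.1 units with a median of 25.7. Of the probes seen on a single array, those with more than 70.4 units were all on the 8-M-PDOT array.

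The humanlincRNA probes were dim as a group. Their median signal was 10.8 units on the melatonin array and 11.2 on the 8-M-PDOT array, against 12.0 on the vehicle array, while the medians over all study probes were 83.6 and 65.0, against 85.7 on the vehicle array. As log2 levels these medians were -5.40 and -4.87, against -5.31 on the vehicle array, for the humanlincRNA probes, and -2.44 and -2.34, against -2.48, for all study probes. The difference was smaller but remained among probes above background, where the humanlincRNA median was -3.12 and -2.68, against -2.95 on the vehicle array, and that of all study probes was -1.31 and -1.27, against -1.29. Only 48 humanlincRNA probes (4.36%) lay above the 75th percentile of the melatonin array and 67 (6.08%) above that of the 8-M-PDOT array, against 53 (4.81%) for the vehicle array.

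A few humanlincRNA probes were among the bright spots of the array. The 8 with the highest mean level were humanlincRNA2397+_P1, humanlincRNA2438+_P1, humanlincRNA1739+_P1, humanlincRNA2330+_P1, humanlincRNA0635+_P1, humanlincRNA0847-_P1, humanlincRNA1145+_P1 and humanlincRNA1050+_P1. The probe humanlincRNA2397+_P1 had 27780 units with melatonin and 34023 with 8-M-PDOT, against 33575 with vehicle. For humanlincRNA2438+_P1 the signals were 37234 and 15802, against 43617 with vehicle, and for humanlincRNA1739+_P1 they were 16765 and 25362, against 21829. None of the 1102 probes was saturated. With melatonin, log2 ratios to vehicle of these 8 probes lay between -0.33 (humanlincRNA2330+_P1) and 0.56 (humanlincRNA1050+_P1), inside 2-fold. With 8-M-PDOT, 2 of the 8 were more than 2-fold higher: humanlincRNA0635+_P1 at 25016 units, against 4276 with vehicle (8.51-fold, 4253 with melatonin), and humanlincRNA1050+_P1 at 13081 units, against 4073 with vehicle (4.67-fold, 5725 with melatonin). The other bright probes stayed between -0.92 (humanlincRNA2438+_P1) and 0.76 (humanlincRNA1739+_P1) on the log2 scale. The mean level includes the 8-M-PDOT array, so a high signal there helps a probe onto this list. With vehicle, humanlincRNA2163-_P1, which is not on the list, had 6439 units, more than humanlincRNA0635+_P1 or humanlincRNA1050+_P1.

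With melatonin, few humanlincRNA probes stood apart from vehicle, and fewer in proportion than on the whole array. A ratio was formed where at least 1 of both arrays was above background, which held for 493 of the 1102 probes: 425 on both arrays, 38 on the melatonin array only and 30 on the vehicle array only, with 609 not measured. Where 1 array was below background, a value under the lowest signal called above background there was raised to that signal, and the fold is a lower bound. A value over that signal was kept. The fold is then the observed ratio with an uncalled signal and not a true bound, though it is counted with the bounds. Of the 493, 11 were higher by 2-fold or more (2.23%) and 10 were lower by that much (2.03%), whereas 6.09% of all 46504 probes measured were higher and 5.14% were lower. In each of 4 brightness ranges both shares of the humanlincRNA probes were below those of all probes. No humanlincRNA probe above background on both arrays was 8-fold higher or lower, and no lower bound reached that size, which 0.249% of all probes reached upwards and 0.159% downwards. That holds without the 2 probes left out for an outlier flag, whose bounds would be past 8-fold lower. A bound under a threshold does not show that the probe lies inside it, and counts inside a threshold take bounds at their bound. Of the humanlincRNA ratios, 405 (82.2%) lay within 1.5-fold of vehicle, and of all probes 73.3% did. The log2 ratios had a median of -0.12, quartiles of -0.38 and 0.14 and a spread of 0.47 (SD over probes), and over all probes the median was -0.06 and the SD 0.69. The scanner software's own error for a spot was 0.17 on the log2 scale at the median on each array. It is an error of a single spot and holds no difference between cultures, and ratios below carry it as ± with both spots combined.

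At least 2-fold higher after melatonin were 7 probes above background on both arrays, all of them named with -. The highest was humanlincRNA0469-_P1 with 399 units, against 104 with vehicle, a log2 ratio of 2.01 ± 0.21. It was followed by humanlincRNA1945-_P1 with 360.5 units, against 103 with vehicle (1.88 ± 0.21), and by humanlincRNA1278-_P1 with 99.8 units, against 30.8 with vehicle (1.77 ± 0.28). For humanlincRNA1397-_P1 the signal was 229 units, against 83.6 with vehicle (1.52 ± 0.22), and for humanlincRNA1382-_P1 258 units, against 115 with vehicle (1.24 ± 0.21). These 5 ratios exceeded the software's spot error several times over. The remaining pair, humanlincRNA0071-_P1 (1.04 ± 0.31) and humanlincRNA0717-_P1 (1.01 ± 0.30), stood at the threshold, with signals of 52.5 and 54.0 units, against 26.8 and 28.2 units with vehicle. Of the 38 probes above background with melatonin but not with vehicle, 4 had a bound past 2-fold. Of these, humanlincRNA0115+_P1 was at least 4.23-fold higher (77.6 units, against 8.12 with vehicle) and humanlincRNA0248+_P1 at least 3.84-fold (70.4 units, against 3.85 with vehicle). The others were humanlincRNA2350-_P1 at no less than 3.24-fold and humanlincRNA1563+_P1 at no less than 2.26-fold.

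At least 2-fold lower after melatonin were 8 probes above background on both arrays, 5 named with + and 3 named with -. The lowest ratio was that of humanlincRNA0319+_P1, with 52.4 units, against 136 with vehicle (-1.30 ± 0.23). The probe humanlincRNA1918+_P1 had 429.7 units, against 1026.5 with vehicle (-1.19 ± 0.20), and humanlincRNA2077+_P1 had 149 units, against 326 with vehicle (-1.06 ± 0.21). The brightest of the 8 was humanlincRNA2052+_P1 with 1056 units, against 2237 with vehicle (-1.01 ± 0.20). The other 4, humanlincRNA1972-_P1 (-1.14), humanlincRNA1780+_P1 (-1.04), humanlincRNA2498-_P1 (-1.04) and humanlincRNA0573-_P1 (-1.04), also stood close to the threshold. Of the 30 probes above background with vehicle but not with melatonin, 2 were past 2-fold. The probe humanlincRNA0883+_P1 was lower by at least 2.14-fold. The probe humanlincRNA0342+_P1 was 2.00-fold lower by its kept melatonin signal of 17.6 units, which is not a bound.

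Many of the melatonin calls sat near the threshold and did not hold under every scaling. Just inside 2-fold were humanlincRNA2253-_P1 (0.99), humanlincRNA2338-_P1 (0.94) and humanlincRNA2333+_P1 (0.91) on the higher side, and humanlincRNA0997+_P1 (-0.91), humanlincRNA1907-_P1 (-0.88) and humanlincRNA2473-_P1 (-0.87) on the lower side. Under 6 other scalings and background corrections, 3 of the 7 higher probes (humanlincRNA0469-_P1, humanlincRNA1945-_P1 and humanlincRNA1397-_P1) and 1 of the 8 lower probes (humanlincRNA1918+_P1) stayed past 2-fold each time. The ratios of humanlincRNA0717-_P1 and humanlincRNA2052+_P1 passed in 1 of the 6. The split of 11 higher and 10 lower became 12 and 4 when the 75th percentile was taken over probes above background on all arrays, and 4 and 1 when the background was corrected by normexp and the 75th percentile kept. With normexp and quantile normalization it was 3 and 1. Over all probes the shares higher and lower in these settings were 6.75% and 4.51%, then 2.95% each way, then 2.94% and 2.39%.

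With 8-M-PDOT, more humanlincRNA probes were past 2-fold on the higher side than on the lower. A ratio was formed for 531 of the 1102 probes: 383 above background on both arrays, 76 on the 8-M-PDOT array only and 72 on the vehicle array only, with 571 not measured. Of the 531, 97 were at least 2-fold higher (18.3%), 49 of them measured on both arrays and 48 as lower bounds, near the 17.1% of all 47822 probes measured. At least 2-fold lower were 38 (7.16%), 29 of them measured on both arrays, whereas 15.8% of all probes were. The share of higher probes was thus near that of the array, and the share of lower probes was less than it. The median log2 ratio was 0.02 with quartiles of -0.41 and 0.76, and the median over all probes was -0.04. The SD over probes was 1.48, and 1.37 over all probes, while 288 humanlincRNA probes (54.2%) and 46.0% of all probes lay within 1.5-fold of vehicle. The doses of both compounds differ and both comparisons use the same vehicle array, so their counts stand side by side without a comparison.

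The share of lower probes differed with brightness. Among probes with a mean level under -4, where 152 of the 531 lay, 29 were higher (19.1%) and 4 lower (2.63%), and over all probes of that brightness 17.9% were higher and 4.54% lower. Between -4 and -2 lay 227 probes, 40 higher (17.6%) and 19 lower (8.37%), with 18.0% and 11.6% over all probes. Between -2 and 0 lay 94, 15 higher (16.0%) and 10 lower (10.6%), with 16.9% and 16.1% over all probes. At 0 and above lay 58, 13 higher (22.4%) and 5 lower (8.62%), with 16.0% and 24.1% over all probes. At each brightness the share of lower humanlincRNA probes stayed under that of all probes, by little in the dimmest range, and no test was possible with 1 array a condition.

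**Figure D2:**
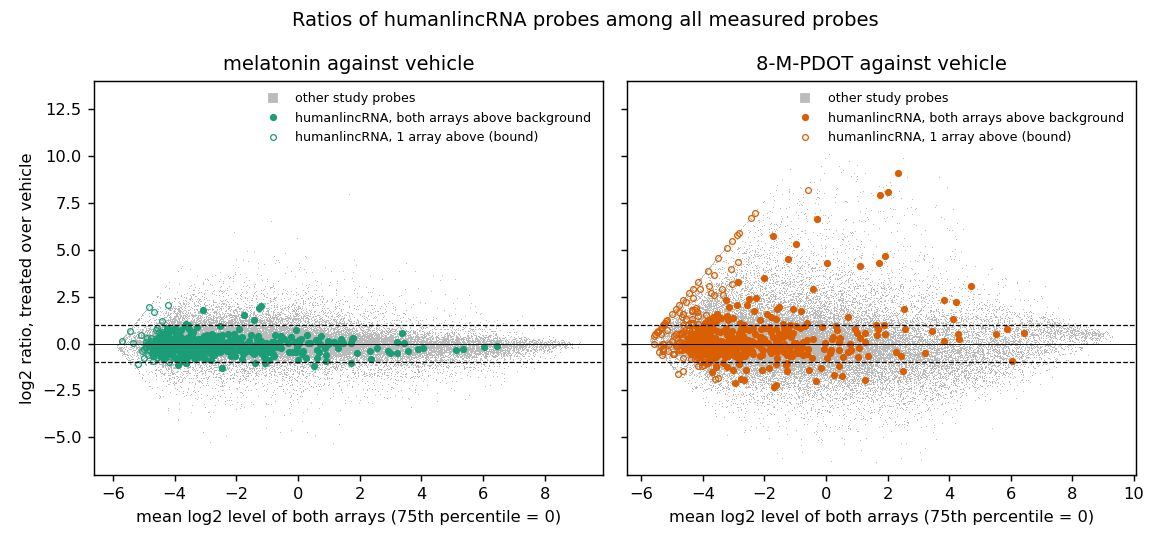
Log2 ratio to vehicle (vertical axis) against mean log2 level of both arrays (horizontal axis) for melatonin and for 8-M-PDOT, with other study probes as grey dots. Filled points are humanlincRNA probes above background on both arrays, and dashed lines mark 2-fold. Open points are probes above background on 1 array, as lower bounds unless the uncalled signal was kept. The melatonin points reach at most 2.08, and the 8-M-PDOT points reach 9.11.

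A tail of very large ratios set the 8-M-PDOT array apart from vehicle. At least 8-fold higher were 29 humanlincRNA probes, 5.46% of the 531, and neither a ratio measured on both arrays nor a bound reached 8-fold on the lower side. The 2 probes left out for an outlier flag are not among the 531, and their bounds would be past 8-fold lower. Over all probes 3.18% were 8-fold higher and 1.1% were 8-fold lower. The 29 were 13 probes named with + and 16 named with -, 14 measured on both arrays and 15 as bounds. Their signals ran from 113 to 39016 units with 8-M-PDOT, with a median of 734. With melatonin they ran from 3.23 to 4253 with a median of 29.2, and with vehicle from 3.85 to 4276 with a median of 18.7. Most of these probes were at or near the edge of detection with vehicle and bright with 8-M-PDOT, which a choice by ratio favours. The 15 bounds were measured only through the 8-M-PDOT array.

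The largest ratio belonged to humanlincRNA1945-_P1, at 39016 units with 8-M-PDOT and 360.5 with melatonin, against 103 with vehicle. That is a 552-fold difference (log2 ratio 9.11 ± 0.21), and 11 of the 47822 probes measured were as high. Next among probes measured on both arrays came humanlincRNA1382-_P1 at 21757 units with 8-M-PDOT and 258 with melatonin, against 115 with vehicle (276-fold, 8.11 ± 0.21). The third, humanlincRNA0469-_P1, had 17248 units with 8-M-PDOT and 399 with melatonin, against 104 with vehicle (242-fold, 7.92 ± 0.21). All 3 had vehicle signals above every negative control spot, so their folds do not rest on the floor. They were also the 3 of the 29 whose melatonin ratio, measured on both arrays, was past 2-fold.

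Further members were measured on both arrays. The probe humanlincRNA0919+_P1 had 2644 units with 8-M-PDOT and 49.1 with melatonin, against 38.6 with vehicle (99.6-fold). For humanlincRNA0076+_P1 the signals were 719 and 30.9 units, against 19.7 with vehicle, which is at the edge of detection (52.9-fold), and for humanlincRNA1970-_P1 they were 1048 and 44.7 units, against 38.6 with vehicle (39.5-fold). Higher vehicle signals were found for humanlincRNA0518+_P1, which had 6309.6 units with 8-M-PDOT, against 359.8 with vehicle (25.5-fold), and for humanlincRNA1016-_P1, which had 4717 units, against 353 with vehicle (19.4-fold). The list of 10 also holds humanlincRNA1645+_P1 (22.7-fold) and humanlincRNA0931+_P1 (19.9-fold). Large ratios were thus found both for probes near background with vehicle and for probes well over it.

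Among probes not above background with vehicle, the folds are lower bounds. The probe humanlincRNA0566+_P1 had 3874 units with 8-M-PDOT and 32.6 with melatonin, against 18.3 with vehicle, and was at least 292-fold higher. For humanlincRNA2316-_P1 the signals were 1672 and 29.2 units, against 3.85 with vehicle (at least 126-fold), and for humanlincRNA0495+_P1 they were 1375 and 15.9 units, against 3.85 with vehicle (at least 104-fold). The last 2 of the 5 highest bounds were those of humanlincRNA0194-_P1 (793 units with 8-M-PDOT, at least 59.8-fold) and humanlincRNA1025-_P1 (734 units, at least 55.4-fold), both at 3.85 units with vehicle. A vehicle signal of 3.85 units was the lowest among the 29. All 10 probes measured on both arrays and all 5 bounds stayed past 2-fold under the 6 other scalings and background corrections. They were picked as the largest ratios of the same data, so that says little about their size. Under these settings the log2 ratio of humanlincRNA0566+_P1 (8.19 in the main scaling) ran from 6.05 to 8.32. That of humanlincRNA0076+_P1 (5.73) ran from 3.61 to 5.85, and that of humanlincRNA1945-_P1 from 8.07 to 9.23. The folds given as at least are thus bounds under the main scaling only.

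**Figure D3:**
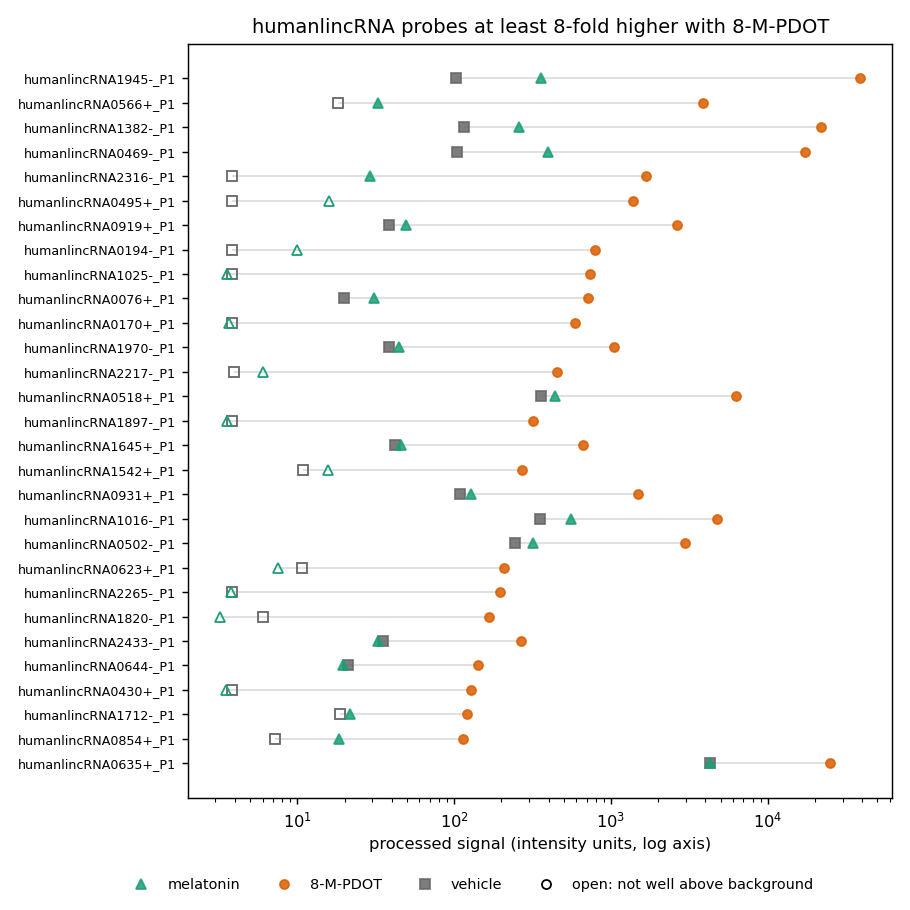
Processed signal (horizontal log axis, intensity units) of the 29 humanlincRNA probes at least 8-fold higher with 8-M-PDOT, ordered by fold from the top, on the melatonin, 8-M-PDOT and vehicle arrays. Open marks are signals not well above background. That the 8-M-PDOT mark lies right of the vehicle mark follows from the choice of the 29 probes. It also lies right of the melatonin mark for each of them, which the same choice favours.

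For 18 of the same 29 probes a melatonin ratio was formed, 14 of them measured on both arrays and 4 as bounds. Of the 14, 11 lay inside 2-fold. The 18 values had a range from -0.03 to 2.01 and a median of 0.39 on the log2 scale, and the other 11 probes were not above background on either array. Past 2-fold were humanlincRNA0469-_P1, humanlincRNA1945-_P1 and humanlincRNA1382-_P1, and the next ratio measured on both arrays was 0.73. None of the 4 bounds reached 2-fold. Both compounds share the vehicle array and differ in dose (1 mM and 100 µM), so these values are set side by side only.

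Lower signal with 8-M-PDOT was found at moderate size. The lowest ratio was that of humanlincRNA2077+_P1, at 45.8 units with 8-M-PDOT and 149 with melatonin, against 326 with vehicle (-2.29 ± 0.23, 4.90-fold lower). It was followed by humanlincRNA1094-_P1, at 49.5 and 176 units, against 335 with vehicle (-2.22 ± 0.23), and by humanlincRNA0740+_P1, at 20.2 and 127 units, against 127 with vehicle (-2.11 ± 0.31). In this last probe the melatonin and vehicle signals were alike and the 8-M-PDOT signal was near the edge of detection. Brighter probes on the list were humanlincRNA2052+_P1, at 399 units with 8-M-PDOT and 1056 with melatonin, against 2237 with vehicle (-1.95 ± 0.20), humanlincRNA0997+_P1, at 254 and 628 units, against 1240.0 with vehicle (-1.75 ± 0.20), and humanlincRNA1918+_P1, at 223 and 429.7 units, against 1026.5 with vehicle (-1.66 ± 0.20). The others were humanlincRNA0691+_P1 (-1.97), humanlincRNA1300-_P1 (-1.94), humanlincRNA0319+_P1 (-1.91) and humanlincRNA1086-_P1 (-1.54). The last 3 had 8-M-PDOT signals of 26.2, 24.8 and 14.8 units. These lay under the brightest negative control spot of that array, at 29.6 units. Of these 10 probes, 7 were named with + and 3 with -.

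Some of the lower calls did not hold under other processing. Under the 6 other scalings and background corrections, 6 of the 10 stayed past 2-fold each time: humanlincRNA0691+_P1, humanlincRNA0997+_P1, humanlincRNA1094-_P1, humanlincRNA1918+_P1, humanlincRNA2052+_P1 and humanlincRNA2077+_P1. None of the 5 largest values with an uncalled 8-M-PDOT signal did. Of these, humanlincRNA2182+_P1 (at least 3.65-fold lower), humanlincRNA1006-_P1 (at least 3.09-fold), humanlincRNA0055-_P1 (at least 2.73-fold) and humanlincRNA2047-_P1 (at least 2.31-fold) were bounds. That of humanlincRNA1627+_P1 (3.60-fold lower) used its kept signal of 15.2 units and is not a bound. The split of 97 higher and 38 lower became 65 and 10 under normexp with the 75th percentile. Over all probes the shares fell as well, from 17.1% higher and 15.8% lower to 11.6% and 10.4%. No probe called in either comparison changed sign under any of these settings. Just inside 2-fold lay humanlincRNA1431+_P1 (0.99), humanlincRNA2296+_P1 and humanlincRNA2312-_P1 (0.98 each) on the higher side, and humanlincRNA2438+_P1 (-0.92) and humanlincRNA2300-_P1 (-0.88) on the lower side, and just past it lay humanlincRNA0132+_P1 (1.07) and humanlincRNA2338+_P1 (-1.02).

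Probes that share a number and differ in the sign were above background together for a minority of numbers. Of 545 numbers with both probes analysed, both were above background for 103 numbers on the melatonin array and for 97 on the 8-M-PDOT array, against 101 on the vehicle array. Only the probe named with + was above background for 118 and 121 numbers, against 119 on the vehicle array, and only the probe named with - for 132 and 137 numbers, against 128. Where the + probe was above background, the - probe was too for 46.6% of numbers with melatonin and 44.5% with 8-M-PDOT, against 45.9% with vehicle. Where the + probe was not, the - probe still was for 40.7% and 41.9% of numbers, against 39.4% with vehicle. The share of - probes above background thus differed by a few percentage points between numbers with and without a + signal.

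The ratios of the 2 signs were weakly correlated at most. With melatonin, 89 numbers had both probes above background on both arrays, and over these the Pearson correlation of the + and - ratios was 0.05 and Spearman's rho -0.03, which is a description over numbers that share both arrays. The 2 ratios of these numbers differed by 0.42 at the median on the log2 scale. Both ratios were formed, bounds included, for 115 numbers, and for 8 of them 1 ratio or bound was past 2-fold, and for none were both. With 8-M-PDOT, 70 numbers had all readings above background, with a Pearson correlation of 0.24, a rho of 0.24 and a median difference of 0.83. Both ratios were formed for 131 numbers, and for 55 of them 1 ratio or bound was past 2-fold and that of its namesake was not. Both were higher for 5 numbers (humanlincRNA0076, humanlincRNA0469, humanlincRNA0854, humanlincRNA0891 and humanlincRNA1535) and both lower for 1 (humanlincRNA2338), and no number had its probes past 2-fold in opposite directions. For humanlincRNA0891 the ratios were near each other, at 2.31 for humanlincRNA0891+_P1 and 2.05 for humanlincRNA0891-_P1. Of all humanlincRNA ratios formed with 8-M-PDOT, 18.3% were at least 2-fold higher and 7.16% lower. With melatonin 2.23% were higher and 2.03% lower. Whether the counts of shared calls differ from what these shares give was not tested.

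**Figure D4:**
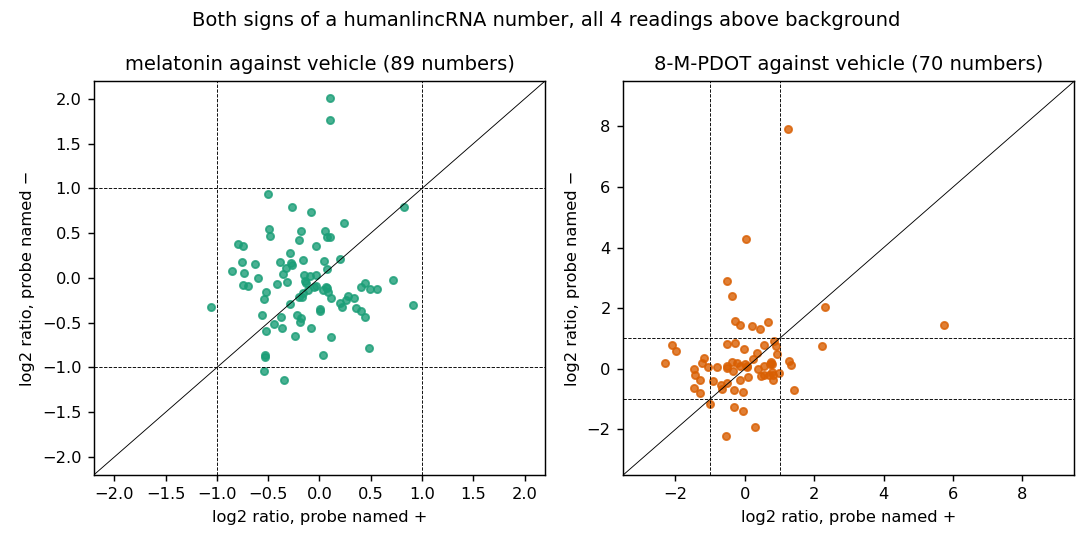
Log2 ratio to vehicle of the probe named with - (vertical axis) against that of the probe named with + (horizontal axis) for numbers with all readings above background, 89 for melatonin and 70 for 8-M-PDOT. Dashed lines mark 2-fold and the diagonal marks equal ratios. Points spread away from the diagonal in both plots.

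The 29 probes 8-fold higher with 8-M-PDOT each had a namesake with the other sign, and 22 of these namesakes were not above background on the 8-M-PDOT or the vehicle array. The same held for 571 of all 1102 humanlincRNA probes. The namesake of the highest, humanlincRNA1945+_P1, had 3.36 units with 8-M-PDOT and 3.74 with melatonin, against 3.85 with vehicle. For humanlincRNA1382+_P1 the signals were 13.6 and 7.47 units, against 4.81 with vehicle, and were not above background on any array. The 7 namesakes that were measured had log2 ratios or bounds from -0.39 to 1.43, and 3 of them were past 2-fold, humanlincRNA0076-_P1 (1.43), humanlincRNA0469+_P1 (1.25) and humanlincRNA0854-_P1 (a lower bound). Of the 7, humanlincRNA0854-_P1 and humanlincRNA2265+_P1 are lower bounds, so no upper limit is known for them.

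Differences between the 2 signs were also found in some of the 6 pairs with the highest mean level. For humanlincRNA2163 the + probe had 9040.4 units with 8-M-PDOT and 4978 with melatonin, against 5223 with vehicle, and the - probe, humanlincRNA2163-_P1, had 4840 and 4729 units, against 6439 with vehicle. The 8-M-PDOT ratio was 1.33 for humanlincRNA2163+_P1 and 0.13 for humanlincRNA2163-_P1, so 1 of the 2 was past 2-fold. For humanlincRNA1050 the - probe humanlincRNA1050-_P1 had 182 units with 8-M-PDOT and 136 with melatonin, against 156 with vehicle, with a ratio of 0.76 where the + probe had 2.22. The humanlincRNA2246 pair had ratios of -0.51 for humanlincRNA2246+_P1 and 0.09 for humanlincRNA2246-_P1 with 8-M-PDOT, and of -0.52 and -0.60 with melatonin. In the humanlincRNA1396 pair both probes lay inside 2-fold in both comparisons, at -0.32 for humanlincRNA1396+_P1 and -0.70 for humanlincRNA1396-_P1 with 8-M-PDOT. The remaining pairs also lay inside 2-fold. With 8-M-PDOT, humanlincRNA2397+_P1 had 0.56 and humanlincRNA2397-_P1 0.78, and with melatonin -0.20 and 0.42. The ratios of humanlincRNA2438+_P1 and humanlincRNA2438-_P1 were -0.92 and -0.41 with 8-M-PDOT, and -0.16 and -0.17 with melatonin.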

How the data were processed

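RNA of 3 cultures was measured on 1-colour Arraystar arrays from Agilent, 1 array per condition. The deposited signal is an intensity that the scanner software had already corrected for background, per the file headers. The submitters' processing notes name that software as Agilent Feature Extraction 11.0.1.1. Its calls (well above background, outlier, saturated) were used as deposited. The authors' deposited value table holds log2 values of unstated normalization and served as an alternative.

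The members are the probes whose names begin with humanlincRNA. Members and lists were chosen with earlier results of these data known. Control spots were left out, and so were probes that any array flagged as an outlier. The log2 of the signal minus each array's 75th percentile over study probes was the level. Ratios needed 1 array or both above background, with a dim side raised to the lowest signal called above background there if it lay under it.

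The tests of the series' design text, a random variance model with p-values from paired samples, were not run, since 1 array per condition leaves no spread to test against. For each comparison the text names up to 10 members per direction measured on both arrays, up to 5 bounds per direction, up to 3 on each side of the threshold, the 8 brightest and 6 sign pairs. The alternatives were the median, a 75th percentile over probes above background on all arrays, quantile normalization, the deposited table, and normexp (offset of 50, on the median spot and background signals, as the mean spot signal was not in the files) with either scaling. The filter, floor, threshold and outlier flags were also varied. Counting was tested on simulated data, with changes well past the threshold in probes above background on all arrays. Calls near the threshold and bounds were not covered by it. The array's grid names the mouse build mm9, but no position or sequence of these probes was in the files. Tools were R 4.3.3 with limma 3.58.1 and Python 3.11.15 with pandas 2.3.3, numpy 2.4.6 and scipy 1.17.1.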

Additional observations from a re-analysis of the deposited data

How the results depend on the processing

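No value changed sign among probes past 2-fold. Of the counts and medians over all humanlincRNA probes, 38 values were classed as the same as those reported and 45 as moved. The first class is wide. For the 97 probes higher with 8-M-PDOT it holds a count of 65 (normexp with the 75th percentile) and one of 119 (no floor). No paired analysis was possible because there was a single array for each culture, and for that reason no replicate was left out. The cause of the moves was not tested, except that a threshold, filter or floor changes a count by its own construction. The signal over background limits most probes, since 553 of 1102 were never above it.

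At 1.5-fold, 34 probes were higher and 54 lower with melatonin, and 157 higher and 86 lower with 8-M-PDOT. At 4-fold the counts were 2 and 0 with melatonin, and 48 and 3 with 8-M-PDOT. Shares over all probes past these thresholds are not given here, so the counts are not read as particular to these probes. With no filter on dim probes they were, at 2-fold, 44 and 49 with melatonin, and 190 and 96 with 8-M-PDOT, of 1102. Over all probes the shares were then 7.20% and 6.11%, and 17.9% and 15.2%. Without a floor 19 were higher with melatonin (all probes 7.43%) and 60 lower with 8-M-PDOT (all probes 17.6%). With both arrays above background 7 were higher with melatonin (all probes 5.71%) and 49 with 8-M-PDOT (all probes 15.1%). Normexp with the 75th percentile gave 4 and 1 with melatonin (all probes 2.95% each way) and 10 lower with 8-M-PDOT (all probes 10.4%). Normexp with quantile normalization gave 3 and 1 (all probes 2.94% and 2.39%), and 51 and 13 with 8-M-PDOT (all probes 10.7% and 10.2%). A 75th percentile over probes above background on all arrays left 4 lower with melatonin (all probes 4.51%).

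The median ratio was -0.12 with melatonin and became -0.065 (that percentile), -0.16 (median scaling), -0.063 (no filter), -0.035 (normexp with the 75th percentile) and -0.061 (normexp with quantile normalization). The median of 0.02 with 8-M-PDOT became 0.15, -0.12, 0.21, 0.24 and -0.061 in the same order. It was -0.15 in the authors' deposited table and -0.14 after quantile normalization. Relative to the main scaling, these settings moved the median of all probes with 8-M-PDOT by -0.14 (median scaling), 0.12 (that percentile), -0.11 (quantile normalization and the deposited table) and 0.17 (normexp with the 75th percentile). Whether the 8-M-PDOT median lay above or below 0 thus depended on the scaling.

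The median log2 level became -2.96 with melatonin and -2.53 with 8-M-PDOT, against -2.84 with vehicle, under median scaling. Under normexp it was -2.79 and -2.45, against -2.82 with vehicle. The software's laxer call of a positive and significant signal held for 724 and 733 probes, against 731 with vehicle. Shares of all study probes and of negative control spots under that call are not given here, so these counts are not read as particular to these probes. The count of probes brighter than every negative control spot was added after seeing the data. Of the values of single probes under other scalings, 696 stayed within the software's spot error and 198 moved by more.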

Other observations

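The 2 humanlincRNA probes left out for an outlier flag carried it on the vehicle array only. The probe humanlincRNA1256-_P1 had 3.17 units with melatonin and 2.90 with 8-M-PDOT, against 402 with vehicle. For humanlincRNA1598+_P1 the signals were 3.27 and 2.98 units, against 226 with vehicle. Both were well above background on the vehicle array alone, and since the software marked those spots as outliers, they were left out of the main counts. With those spots kept, the log2 bounds of humanlincRNA1256-_P1 were -4.60 with melatonin and -4.26 with 8-M-PDOT. Those of humanlincRNA1598+_P1 were -3.77 and -3.42. The absence of probes 8-fold lower in the main counts thus depends on leaving these spots out.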
